A study of Mus musculus with 9 samples.

Results

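The 10 genes described here are those whose products are used to sort blood stem and progenitor cells, and they were followed through the LSK compartment of young, aged and CASIN mice. They are Procr, Slamf1, Cd48, Cd34, Flt3, Kit, Ly6a, Esam, Cd27 and Fgd5. They were chosen by symbol, and all 10 were among the 31053 genes of the count tables. Fgd5 encodes an intracellular exchange factor for small GTPases and marks stem cells through reporter mice, whereas the other genes encode proteins of the cell surface.

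LSK cells are bone marrow cells that lack antigens of mature lineages and carry Kit, the receptor for stem cell factor, and Sca-1, the product of Ly6a. The compartment holds blood stem cells (HSCs) and multipotent progenitors, which are told apart by further antigens. EPCR (Procr), CD150 (Slamf1) and ESAM are kept on stem cells, whereas CD48, CD34, the cytokine receptor Flt3 (also called Flk2) and CD27 appear or increase as cells move towards multipotent and lymphoid-primed progenitors. In the scheme of this study long-term HSCs are CD34 low or negative and Flk2 negative, short-term HSCs are CD34 positive and Flk2 negative, and lymphoid-primed progenitors carry both. Transcripts, not proteins, were counted here, so a cell without a transcript of a gene can still carry its protein.

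Single LSK cells of C57BL/6 mice were sequenced after thawing of viably frozen cells, with 3 young, 3 aged and 3 CASIN samples in 2 sequencing batches. Young mice were 10 to 12 weeks old and aged mice at least 80 weeks. CASIN, an inhibitor of the small GTPase Cdc42, was injected into aged mice on 4 occasions, 24 h apart, at a dose of 25 mg/kg, and young and aged controls received the carrier cyclodextrin. Cells were harvested on day 5, and nothing in the labels says whether a sample pools several mice, so p-values measure the spread between these samples. Aged replicate 1 was sequenced in batch 1 together with replicates 1 and 2 of the young and of the CASIN group, and the other 4 samples made up batch 2.

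The libraries held 19237354 to 42780953 UMIs, and 15856 of 32387 barcodes passed the filters, with medians of 9532 to 14622 UMIs per cell. The batches differed before any comparison: 73.8% of barcodes were kept in batch 1 and 34.4% in batch 2, where 63.8% of barcodes exceeded the mitochondrial limit. The summed level of 5 immediate early genes was 2878 to 5413 CPM (counts scaled to the same total in every sample) in batch 1 and 362 to 1127 CPM in batch 2. Therefore the main fits of gene levels carried the batch as a term. The exact permutation tests and the overlap of groups for shares of cells, odds ratios and combinations take no account of the batch. Values within each batch stand beside most results. Of the cells kept, 306 (1.93%) had a barcode found in another library as well, and the calls below that change without them are named. Antigens of the lineage gate summed to 9.23 to 55.1 CPM and T cell markers to 0.603 to 6.72 CPM, B cell markers to 8.85 to 60.2 CPM, red cell markers to 13.3 to 48.3 CPM and stromal and endothelial markers to 1.21 to 26.2 CPM, whereas neutrophil markers reached 420.1 CPM in aged replicate 3 and mast cell and basophil markers 114 CPM in young replicate 3, against 2.96 to 88.6 CPM and 7.45 to 28.3 CPM elsewhere. Their part in the results was not tested.

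On GRCm38 the genes lie on several chromosomes. Cd48 (chr1:171682009-171705258) and Slamf1 (chr1:171767127-171801184), which encode related receptors of the SLAM family and are read in opposite ways in a stem cell sort, are neighbours on the plus strand, 61868 bases apart and with no protein-coding gene between them. Cd34 lies on the same chromosome (chr1:194938819-194961279), as Flt3 (chr5:147330741-147400489) and Kit (chr5:75574916-75656722), both receptor tyrosine kinases, share chromosome 5, and Cd27 (chr6:125232622-125237010) and Fgd5 (chr6:91978878-92076004) chromosome 6. Procr is at chr2:155751117-155755471, Ly6a at chr15:74994877-74998031 and Esam at chr9:37528078-37538319. Cd34, Flt3, Cd27 and Fgd5 overlap a gene on the other strand, and Ly6a belongs to a family of similar genes. Whether strand was used in counting is not given in the sources used here, and without it reads of such overlapping genes cannot be told apart.

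Promoters of 4 of these genes are printed because the results turn on them: Slamf1 and Procr, whose transcripts rose with age, and Cd48 and Flt3, which were nearly absent from the HSC-like cells described below. Each is the RefSeq stretch of GRCm38.p6 from 250 bases before to 50 bases after the RefSeq start, 5′ to 3′ on the gene's strand. That start differs from the gene start given above for Slamf1, Cd48 and Procr. Capitals mark, on either strand, the short core motif of the GATA family (GATAA), that of the RUNX family (TGTGGT) and that of the ETS family (GGAAG), and no matches of different motifs overlapped.
Slamf1 (chr1:171766882-171767181, plus strand): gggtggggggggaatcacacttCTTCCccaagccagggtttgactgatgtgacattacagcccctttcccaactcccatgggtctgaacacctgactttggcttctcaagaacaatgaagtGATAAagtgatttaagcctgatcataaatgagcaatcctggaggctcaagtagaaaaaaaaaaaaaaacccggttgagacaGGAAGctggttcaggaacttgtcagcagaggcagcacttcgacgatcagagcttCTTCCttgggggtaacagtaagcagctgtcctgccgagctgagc
Cd48 (chr1:171681742-171682041, plus strand): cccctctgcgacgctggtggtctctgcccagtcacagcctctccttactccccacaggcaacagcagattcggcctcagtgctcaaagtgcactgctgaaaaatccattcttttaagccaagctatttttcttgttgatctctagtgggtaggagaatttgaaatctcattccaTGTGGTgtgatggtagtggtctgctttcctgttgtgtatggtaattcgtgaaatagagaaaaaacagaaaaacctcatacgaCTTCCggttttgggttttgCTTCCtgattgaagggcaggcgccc
Procr (chr2:155750967-155751266, plus strand): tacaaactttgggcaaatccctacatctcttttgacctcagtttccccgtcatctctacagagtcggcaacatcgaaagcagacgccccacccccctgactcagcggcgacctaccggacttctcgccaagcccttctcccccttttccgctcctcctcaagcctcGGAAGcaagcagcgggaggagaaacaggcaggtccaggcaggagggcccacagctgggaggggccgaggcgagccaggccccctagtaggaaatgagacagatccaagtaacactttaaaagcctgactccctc
Flt3 (chr5:147400440-147400739, minus strand): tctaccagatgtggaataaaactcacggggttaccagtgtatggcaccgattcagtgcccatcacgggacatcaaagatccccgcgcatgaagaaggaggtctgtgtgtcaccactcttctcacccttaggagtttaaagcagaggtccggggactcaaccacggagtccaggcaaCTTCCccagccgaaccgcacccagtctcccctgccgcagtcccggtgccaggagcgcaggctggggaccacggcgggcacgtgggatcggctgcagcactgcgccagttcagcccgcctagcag

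RefSeq promoters were at hand for 8 of the 10 genes, without Ly6a and Esam. Only Slamf1 and Cd34 held GATAA, with 1 match each, against 25.4% of 32851 promoters of that length. TGTGGT was found only in Cd48, with 1 match, against 16.8% of promoters. GGAAG occurred in all 8, from 1 match in Procr, Cd34, Flt3, Kit, Cd27 and Fgd5 to 2 in Cd48 and 3 in Slamf1, but 71.4% of promoters held it. These matches describe letters in a window and say nothing of binding.

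The genes of the gate were detected in most cells but not in all. At least 1 UMI of Kit was found in 79.0% of cells and of Ly6a in 67.5% (means of 9 samples), and both were found in 53.9% and neither in 7.39%. Detection depends on depth, so each cell was also thinned to 4000 UMIs, which left out 332 shallower cells. At that depth Kit was detected in 46.6% ± 7.87 (SD, n = 9) of cells and Ly6a in 39.1% ± 5.36. Had the UMIs fallen at random over the cells of a sample (Poisson), the shares would have been 50.1% and 46.4%, so that the gap was wider for Ly6a. Kit and Ly6a were detected almost independently of each other, with a log2 odds ratio of 0.07 ± 0.14 and values from -0.15 to 0.25.

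Neither gate gene passed the test in any comparison of all LSK cells. Kit stood at 142, 156 and 131 CPM in young replicates 1 to 3, at 225, 112 and 131 CPM in the aged samples, and at 201, 220.1 and 124 CPM in the CASIN samples. Its high values were the batch 1 samples of the aged and CASIN groups, and the groups overlapped. Ly6a stood at 134, 127 and 87.9 CPM in the young samples, at 149, 134 and 138 CPM in the aged and at 149, 186 and 144 CPM in the CASIN samples. All CASIN samples were thus above the young ones, by 0.35 on the log2 scale in batch 1 and 0.73 in batch 2, but the change of 0.47 ± 0.12 (log2, SE) had an adjusted p of 0.060 (edgeR) and passed without the cells of shared barcodes (adjusted p of 0.037).

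Among the genes kept on stem cells, Procr and Slamf1 rose with age. Procr, the receptor of activated protein C, was at 43.6, 38.6 and 78.8 CPM in the young samples, at 102, 126 and 128 CPM in the aged, and at 81.5, 62.5 and 131 CPM in the CASIN samples. The aged samples all lay above the young ones, and the batch 2 sample was the highest of both the young and the CASIN group. Procr increased by 0.99 ± 0.14 on the log2 scale in aged over young (adjusted p of 0.010, edgeR) and by 0.78 ± 0.14 in CASIN over young (adjusted p of 0.020). Within batches the differences between aged and young were 1.31 in batch 1 and 0.71 in batch 2.

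Slamf1, which encodes CD150, had few transcripts, 1877 UMIs over all cells. Its level was 3.99, 3.24 and 1.41 CPM in the young samples, 28.7, 5.01 and 2.27 CPM in the aged, and 22.4, 19.3 and 5.29 CPM in the CASIN samples. Aged replicate 1 stood far above the other aged samples and CASIN replicate 3 below the other CASIN samples, so the order followed the batch within each group, and aged replicate 3 lay below the young samples of batch 1. Slamf1 rose by 2.42 ± 0.36 in aged over young (adjusted p of 0.011) and by 2.43 ± 0.35 in CASIN over young (adjusted p of 0.0099). The differences within batches were 2.99 and 1.39 for aged and 2.51 and 1.92 for CASIN against young. Without aged replicate 1 the rise with age was 1.71 and no longer passed (adjusted p of 0.065).

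Esam and Fgd5, both shared between stem cells and endothelium, did not pass in these sums. Fgd5 was at 4.67, 6.00 and 6.04 CPM in the young samples, at 19.2, 7.62 and 5.45 CPM in the aged and at 12.6, 12.0 and 12.4 CPM in the CASIN samples. The 3 CASIN samples agreed across batches and lay above all young ones, yet the difference of 1.16 ± 0.34 had an adjusted p of 0.087. Esam, an adhesion molecule of tight junctions, was at 24.1, 23.4 and 18.1 CPM in the young, 60.3, 17.4 and 16.5 CPM in the aged and 41.6, 46.6 and 22.8 CPM in the CASIN samples. For both genes aged replicate 1 was the highest sample of the series, and the aged to young difference of batch 1, 1.84 for Fgd5 and 1.34 for Esam, was not seen in batch 2, with 0.14 and -0.07.

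The genes of progenitors were lower in several aged and CASIN samples, and none of them passed the test. Cd34, a sialomucin, was at 369, 357 and 369 CPM in the young samples, at 154, 342 and 308.6 CPM in the aged, and at 225, 219 and 225 CPM in the CASIN samples. Every CASIN sample and aged replicate 1 lay far below the young samples, whereas aged replicates 2 and 3 came close to them. Cd34 differed by -0.61 ± 0.22 between aged and young (adjusted p of 0.142) and -0.72 ± 0.20 in CASIN over young (adjusted p of 0.074), the latter equal in both batches (-0.72 and -0.70). Cd27, a receptor of the tumor necrosis factor family, was at 196, 195 and 111 CPM in the young, 118, 96.8 and 91.1 CPM in the aged and 131, 158 and 86.1 CPM in the CASIN samples. Its changes of -0.45 ± 0.13 and -0.42 ± 0.12 had adjusted p-values of 0.081 and 0.082.

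Flt3 was at 126, 143 and 69.7 CPM in the young samples, at 49.98, 92.4 and 71.8 CPM in the aged and at 73.4, 94.4 and 53.6 CPM in the CASIN samples. Its aged to young difference was -1.43 on the log2 scale within batch 1, and 0.26 within batch 2. Cd48, the ligand of CD244, differed between the batches in the young and CASIN groups, with 124, 118 and 23.2 CPM in the young, 54.6, 52.6 and 26.8 CPM in the aged, and 78.5, 85.6 and 13.8 CPM in the CASIN samples. Its aged to young difference was -1.15 in batch 1 and 0.80 in batch 2, and the change over both was 0.04 ± 0.45, adjusted p of 0.976.

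**Figure D1:**
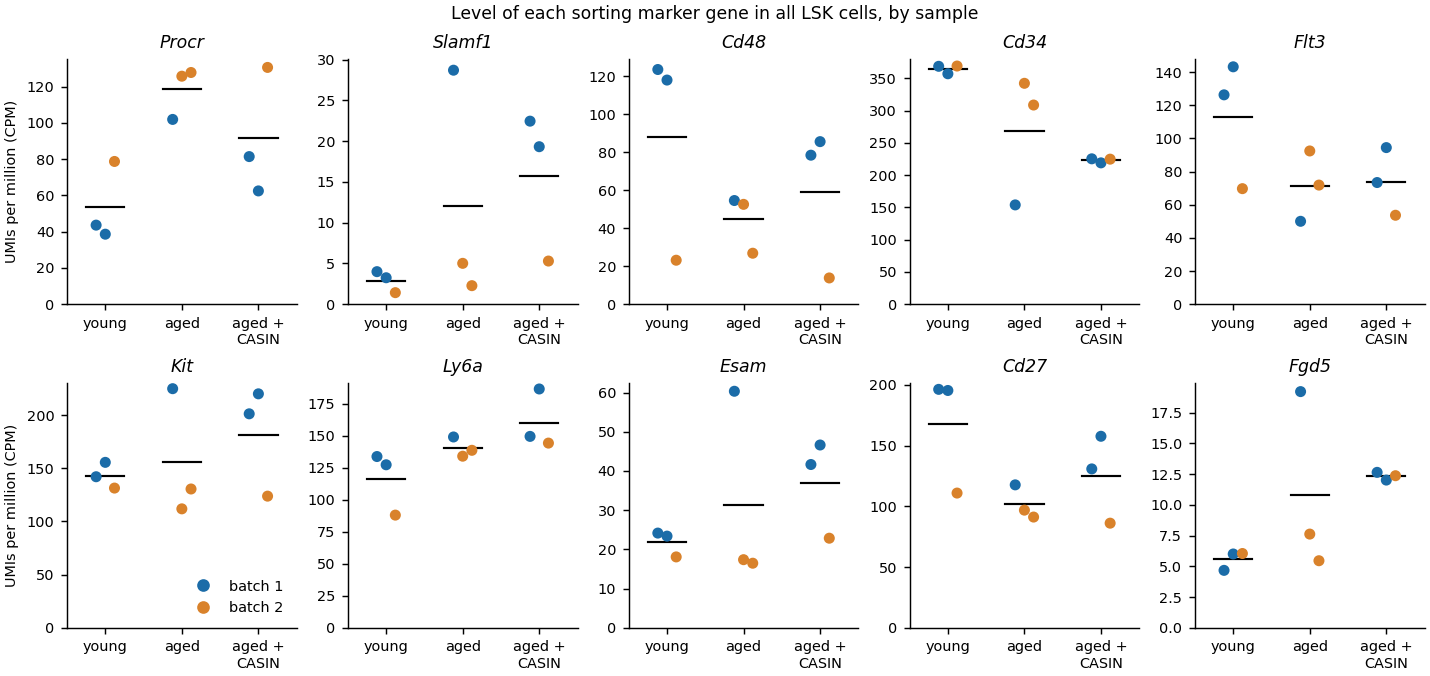
Level of each gene in the UMIs of all LSK cells of a sample (CPM, linear axes from 0), with a point per sample coloured by sequencing batch and a bar at the group mean (n = 3). Procr is higher in all 3 aged samples (102 to 128 CPM) than in the young ones (38.6 to 78.8 CPM), while Slamf1 is higher in the batch 1 samples of each group than in its batch 2 samples.

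In all, 2 of the 10 genes rose and none fell in aged over young, where 577 of 13948 genes tested (4.14%) were called in either direction. The same count, 2 risen and none fallen, held for CASIN over young, where 4.5% of genes were called. The median change of the 10 genes was 0.34 and 0.38 in these comparisons, against 0.02 and 0.01 over all genes tested. These counts and medians are a description, since the 10 genes were chosen with earlier results of these data known. Both calls of both genes were lost without the batch term, with adjusted p-values of 0.58 to 0.94. They were also lost without young replicate 1 or 2 (0.060 to 0.111), which leaves 1 young sample in batch 1, and in CASIN over young without CASIN replicate 1 (0.098 for Procr and 0.052 for Slamf1) and, for Procr, without CASIN replicate 3 (0.128). With a mitochondrial limit of 5%, Procr no longer passed in either comparison (0.083 and 0.240) and Slamf1 no longer in CASIN over young (0.051). Other members gained a call. Without young replicate 3 Kit (0.55, adjusted p of 0.034) and Esam (1.07, 0.022) passed in aged over young. Without aged replicate 1, Cd34, Flt3, Ly6a, Esam, Cd27 and Fgd5 passed in CASIN over young (adjusted p of 0.00033 to 0.024). DESeq2 called Cd34, Ly6a, Cd27 and Fgd5 in that comparison (0.0050 to 0.025) and Cd34 and Cd27 in aged over young (0.037 and 0.017). Counts over all genes moved as well. With a sample left out they ranged from 31 to 945 in aged over young and from 20 to 1584 in CASIN over young. DESeq2 also called more genes than edgeR in both comparisons. The gained calls are therefore not read as a result about the members. In sums over all LSK cells, more cells of a type and more RNA per cell cannot be told apart.

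Between CASIN and aged samples no gene of the whole table passed (0% called, 452 genes at an unadjusted p under 0.05), and DESeq2 also called none. Among the members the changes reached -0.22 ± 0.14 for Procr, 0.0082 ± 0.32 for Slamf1, -0.65 ± 0.46 for Cd48 and 0.14 ± 0.33 for Fgd5, all with adjusted p-values of 0.991 or above. The batches pointed in opposite directions for several genes. Procr was lower in CASIN than in aged samples in batch 1 (-0.52) and level in batch 2 (0.03), Slamf1 differed by -0.47 and 0.53, Cd48 by 0.57 and -1.53, and Fgd5 by -0.65 and 0.91. The contrast of CASIN with young and that of aged with young share the young samples.

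Shares of cells with a transcript, at 4000 UMIs per cell, spanned a wide range between genes. Over all samples Cd34 was detected in 55.7% of cells (33.1% to 72.8%), Cd27 in 39.2%, Procr in 27.3% (16.0% to 37.4%), Flt3 in 23.4%, Cd48 in 15.0% (3.25% to 28.8%), Esam in 12.1%, Fgd5 in 4.401% and Slamf1 in 4.15% (0.549% to 11.5%). Without thinning the shares of Slamf1 and Fgd5 were 9.35% and 10.6%.

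The share of cells with Procr was 17.97%, 16.0% and 23.3% in the young samples and 33.5%, 33.1% and 33.3% in the aged, which nearly coincided, and 28.5%, 22.7% and 37.4% in the CASIN samples. Cd34 was detected in 72.8%, 71.4% and 67.6% of young, 33.1%, 59.8% and 60.4% of aged and 46.3%, 47.3% and 42.7% of CASIN cells. Procr (a difference of 14.2 percentage points), Cd34 (-19.5) and Cd27 (-15.1) did not overlap between aged and young samples, where 8.98% of 10835 genes compared did not. The differences within batches 1 and 2 were 16.5 and 9.94 for Procr, -39.0 and -7.49 for Cd34 and -17.8 and -4.94 for Cd27. Slamf1 (5.19), Cd34 (-25.2), Esam (5.66) and Fgd5 (2.93) did not overlap between CASIN and young samples, where the background was 9.97%. Here the batches gave 6.84 and 1.88 for Slamf1, -25.3 and -24.9 for Cd34, 7.63 and 1.72 for Esam and 2.90 and 2.98 for Fgd5. In all LSK cells no member was separated between CASIN and aged samples, with a background of 2.04%. An exact permutation test of 3 against 3 samples cannot go below p = 0.1 (two-sided), and the smallest adjusted p over the 30 tests was 0.429. In the HSC-like cells described below, Flt3 (1.31% against 1.99%) and Fgd5 (13.7% against 11.9%) did not overlap between CASIN and aged samples. Within batches 1 and 2 these differences were -0.47 and -1.31 for Flt3 and 0.84 and 3.25 for Fgd5. The adjusted p was 0.3 for each (exact permutation test), and no background over all genes was computed for that class.

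To place the genes within the compartment, cells were clustered without the 10 genes, and 14 clusters were found. A single cluster, led by Tm4sf1, Ramp2, Jam2, Cyr61 and Vwf, had at least 3 of 10 HSC markers among its leading genes and is called HSC-like. That threshold was set after the clusters were seen. It held 1557 cells, 9.82% of all, with 4.63% to 7.33% of young, 9.55% to 12.1% of aged and 10.99% to 16.6% of CASIN cells. A cluster led by Fosb and Fos, kept out by that threshold, held 16.0% of aged replicate 1, 8.08% to 10.6% of the other batch 1 samples and 1.78% to 3.39% of batch 2 samples. A cluster led by the MHC class II gene Cd74, also kept out, held 4.22% to 5.08% of young, 5.38% to 6.21% of aged and 5.67% to 7.07% of CASIN cells. The paper annotated as HSCs also a cluster with high Fos and Jun and a cluster enriched in Cd74. Here the Fosb and Cd74 clusters belong to the other LSK cells, meaning all cells outside the HSC-like cluster. Other LSK cells may therefore include cells that the paper counts as HSCs. The summed level of the 10 HSC markers in HSC-like cells was 952 to 1166 CPM in the young, 1470 to 2086 CPM in the aged and 1653 to 2087 CPM in the CASIN samples, so the naming genes themselves differed between groups and the cluster's size was not compared.

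Levels in clusters are means of samples and a description, without a test. Procr was highest in HSC-like cells, 207 ± 91.2 CPM, followed by the MHC class II cluster with 163 CPM and lowest, 5.05 CPM, in a cluster led by Cox6a2, Ly6d and Il7r. Slamf1 (32.1 ± 20.8 CPM), Fgd5 (28.5 ± 8.15 CPM) and Esam (65.2 ± 20.05 CPM) had their highest level in HSC-like cells too. A cluster led by Cxcl12 and Cxcl14 lay within their spread, with Slamf1 at 25.8 ± 26.8 CPM, Fgd5 at 24.2 ± 20.8 CPM and Esam at 57.4 ± 34.2 CPM. Esam reached nearly the same level, 61.2 ± 27.5 CPM, in a cluster led by the megakaryocyte genes Pf4 and Itga2b, where Procr was at 26.6 CPM and Fgd5 at 6.54 CPM.

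Cd48, Flt3 and Cd34 were low in HSC-like cells. Cd48 was at 1.19 CPM in HSC-like cells, 14 UMIs in all, at 12.5 CPM in the MHC class II cluster, at 131 CPM in the Cox6a2, Ly6d cluster, and at 282 CPM in a small cluster led by the monocyte genes Ly6c2 and Lgals3. Flt3 was at 6.67 CPM in HSC-like cells and 10.3 CPM in the Pf4 cluster, and stood at 177 CPM in a cluster led by Wfdc17 and Ccl3 and at 248 CPM in the Cox6a2, Ly6d cluster. Cd34 was at 57.0 CPM in HSC-like cells and highest, 432 CPM, in the Wfdc17 cluster. Cd27 varied less, from 35.8 CPM in the Ly6c2 cluster to 173 CPM in the Cox6a2, Ly6d cluster, with 80.1 CPM in HSC-like cells.

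The gate genes had orders of their own. Kit was highest, 330 CPM, in a cluster led by Cxcl12 and Cxcl14 with a low median of 5957 UMIs per cell, then stood at 204 CPM in the Fosb cluster, 203 CPM in the Pf4 cluster and 198 ± 60.8 CPM in HSC-like cells, neighbours that lay within their spread of each other. Kit was lowest, 49.4 CPM, in the Ly6c2 cluster. Ly6a, an interferon-responsive gene, led in the interferon cluster (Rsad2, Ifit1) with 409 CPM, ahead of 264 CPM in the MHC class II cluster and 212 ± 52.5 CPM in HSC-like cells, and was low, 49.6 CPM, in the Pf4 cluster.

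**Figure D2:**
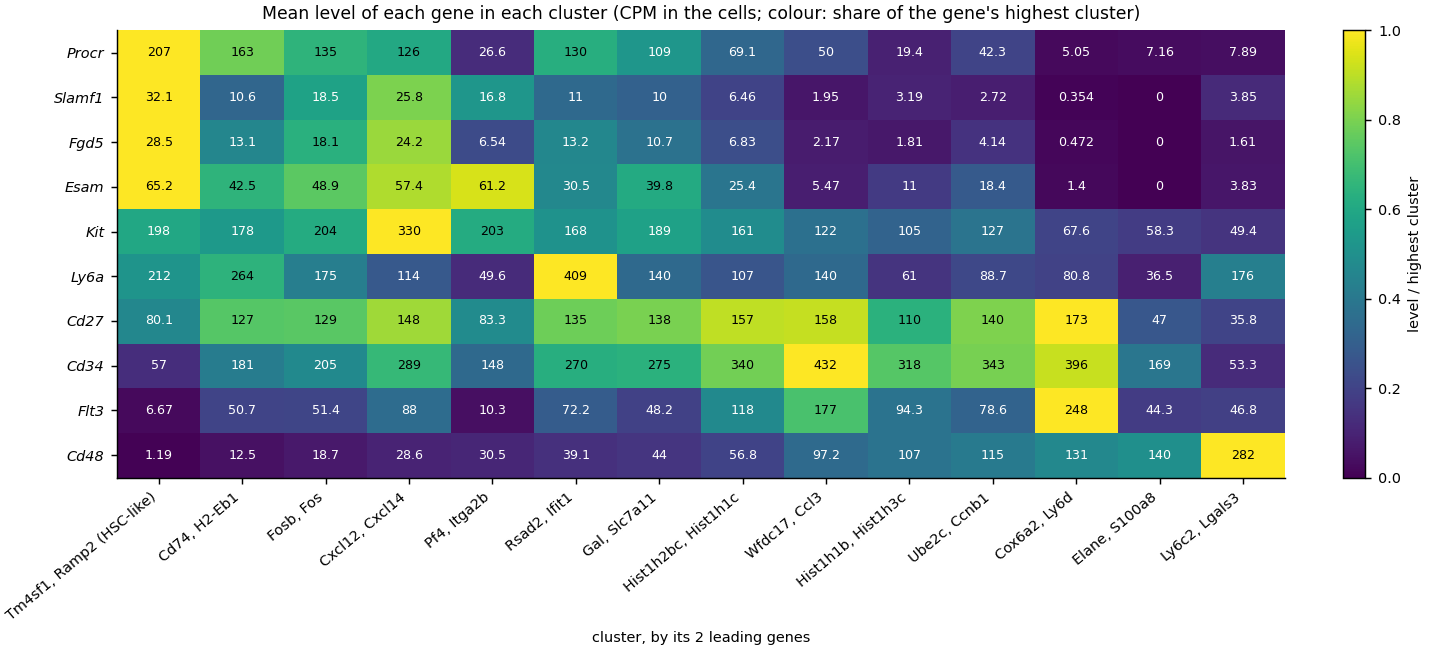
Mean level (CPM, printed in each cell) of the 10 genes in 14 clusters named by their leading genes and ordered by Cd48, with colour giving the level as a share of the gene's highest cluster. Procr, Slamf1, Fgd5 and Esam peak in the HSC-like cluster at the left, where Cd48 is at 1.19 CPM and Flt3 at 6.67 CPM.

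Shares of cells with these transcripts differed between clusters at the same depth. Here the cells of all samples were pooled, so these shares are not means of samples. At 4000 UMIs, Slamf1 was detected in 11.6% of HSC-like cells (median depth 9504 UMIs) and 0.178% of Cox6a2, Ly6d cells (15985 UMIs), Fgd5 in 12.2% and 0.126%, Esam in 21.5% and 0.431%, and Procr in 54.2% and 1.82%. In the reverse direction Cd48 was detected in 0.206% of HSC-like and 40.3% of Cox6a2, Ly6d cells, and Flt3 in 1.92% and 63.5%. Whether the low shares of 0.206% for Cd48 and 0.178% for Slamf1 come from free RNA or from the cells themselves was not tested.

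By correlation of log2(CPM + 1) over the 14 clusters, which share libraries, the genes most like each member were named among genes of at least 20 CPM. Slamf1 ran with Clca3a1 (r = 0.988), St3gal1 and Cavin2, and Procr with Glul (r = 0.980), Ifitm1 and Tnfaip8. Esam ran with Aldh1a1 (r = 0.991), Zfpm1 and Csgalnact1, and Fgd5 with Rfk (r = 0.988) and Enpp5. Cd48 ran with Bin1 (r = 0.977) and BC035044, Flt3 with Arap2 (r = 0.969), Satb1 and Bcl2l11, and Cd34 with Rabgap1l (r = 0.924), Ssbp1 and Sox4. The nearest were Ddhd2 (r = 0.982), Gse1 and Cdc42bpa for Kit, Olfr1369-ps1 (r = 0.977), Marcksl1 and Cables1 for Cd27, and Shisa5 (r = 0.918), Ltb and Rps27 for Ly6a.

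Within HSC-like cells Procr and Slamf1 rose with age, whereas Esam and Fgd5 did not pass the test. Procr was at 144, 134 and 132 CPM in the young samples, at 170.4, 377 and 306 CPM in the aged and at 175, 142 and 288 CPM in the CASIN samples. Every aged sample exceeded every young one, but batch 1 gave a difference of 0.36 and batch 2 of 1.42. The rise was 0.80 ± 0.18 in aged over young (adjusted p of 0.012, edgeR), and without young replicate 3 it was 0.38 and did not pass (0.321). Slamf1 was at 30.7, 20.9 and 2.19 CPM in the young samples, at 53.3, 29.3 and 13.7 CPM in the aged and at 63.2, 55.2 and 20.1 CPM in the CASIN samples. The value of young replicate 3 rests on 2 UMIs. Slamf1 rose by 1.40 ± 0.30 in aged (adjusted p of 0.0069) and by 1.39 ± 0.26 in CASIN over young (0.0018). Within batches 1 and 2 these differences were 1.12 and 3.36 for aged and 1.22 and 3.31 for CASIN. The other LSK cells passed too in aged over young, with 2.36 ± 0.47 for Slamf1 (adjusted p of 0.042) and 0.92 ± 0.17 for Procr (0.036).

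These were 2 of 9 members tested in aged over young, with 3.24% of 10224 genes called. Cd48 had too few UMIs to be tested. In CASIN over young 5 of 9 were called, 2 risen and 3 fallen, with 5.42% of genes called. Fgd5, besides Slamf1, rose by 0.96 ± 0.21 (adjusted p of 0.0067, edgeR). Fgd5 was at 24.1, 20.03 and 13.1 CPM in the young, 31.3, 30.3 and 29.5 CPM in the aged and 32.8, 36.8 and 38.7 CPM in the CASIN samples. Cd34 was at 88.8, 78.4 and 68.9 CPM in the young, 37.0, 68.2 and 54.3 CPM in the aged and 36.7, 33.9 and 46.6 CPM in the CASIN samples, and fell by 0.98 on the log2 scale in CASIN over young (SE 0.18, adjusted p of 0.0012). Within batches 1 and 2 the CASIN to young differences were 0.69 and 1.66 for Fgd5 and -1.22 and -0.46 for Cd34. Flt3, with 90 UMIs in all, fell by 1.70 (SE 0.43, adjusted p of 0.017) and Cd27 fell by 0.51 (SE 0.15, adjusted p of 0.041), with -1.67 and -1.68 for Flt3 and -0.49 and -0.55 for Cd27 within batches.

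The fall of Cd27 in HSC-like cells was lost in several fits, among them DESeq2 (adjusted p of 0.138) and without any young replicate (0.058 to 0.208) or CASIN replicates 1 and 3 (0.166 and 0.219). Flt3 was lost with DESeq2 (0.062) and without young replicate 2 or CASIN replicate 3 (0.173 and 0.113), and Fgd5 without young replicate 3 or CASIN replicate 3 (0.074 and 0.078). At a mitochondrial limit of 5% Flt3, Cd27 and Fgd5 did not pass (0.139 to 0.170). All calls of HSC-like cells were lost without the batch term. The remaining members did not pass in aged over young: Kit 0.18 ± 0.13, Ly6a 0.05 ± 0.19, Esam 0.13 ± 0.15, Fgd5 0.70 ± 0.24, Cd34 -0.64 ± 0.19, Flt3 -0.72 ± 0.45 and Cd27 -0.46 ± 0.16. In CASIN over young the values were 0.53 ± 0.17 for Procr (adjusted p of 0.071), 0.17 ± 0.13 for Kit, 0.15 ± 0.18 for Ly6a and 0.02 ± 0.14 for Esam.

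No member passed between CASIN and aged HSC-like cells, where 3 genes of the table were called (0.0293%). Procr differed by -0.26 ± 0.16, Slamf1 by -0.011 ± 0.22, Fgd5 by 0.25 ± 0.18 and Flt3 by -0.99 ± 0.46, with an adjusted p of 0.999 each. A wider HSC-like class gave more calls: at a clustering resolution of 0.8 it held 3448 cells, among them 1549 of the 1557, and Cd34 changed by -1.43, Flt3 by -1.76, Cd27 by -0.65 and Fgd5 by 0.81 in aged over young, all past the test (adjusted p of 0.0022 to 0.032). More genes of the whole table were called in that fit too, above the 331 of the narrower class. The wider class held 10.1% to 21.1% of young and 22.5% to 28.2% of aged cells. Whether the cells added to it carry these changes was not tested.

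**Figure D3:**
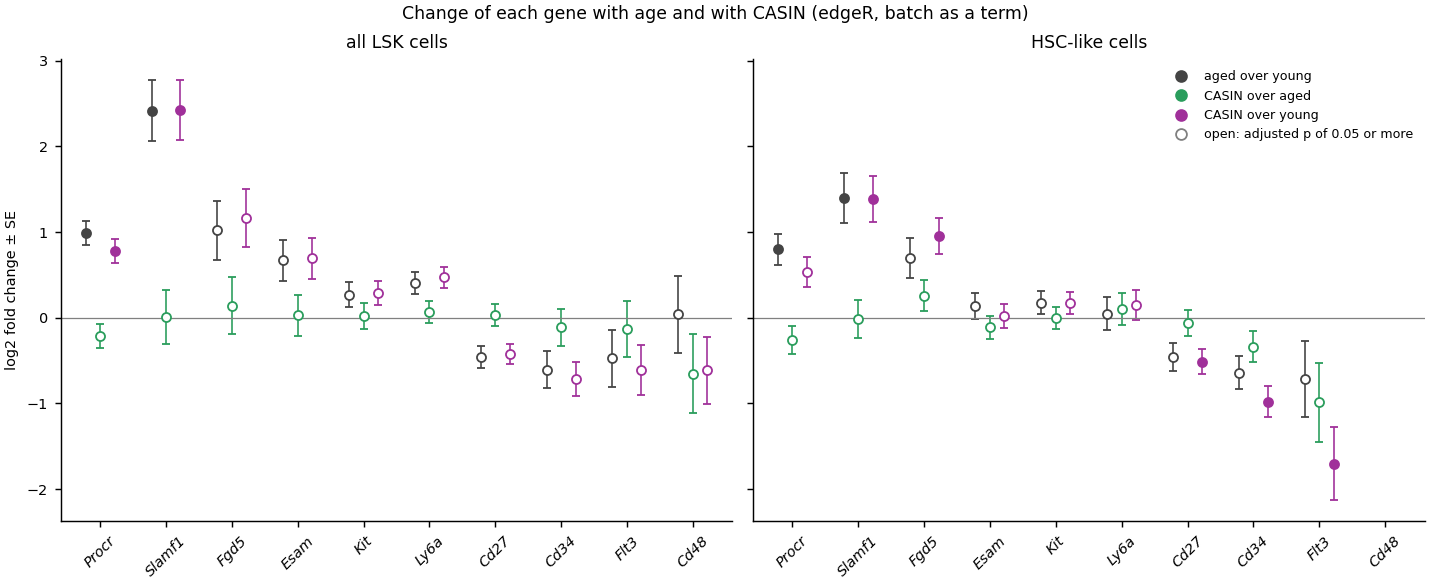
Log2 fold change with SE of each gene in all LSK cells and in HSC-like cells for 3 comparisons (edgeR, 3 samples a group), with filled points for adjusted p-values under 0.05. Slamf1 and Procr are past the threshold in aged over young in both panels, no green point (CASIN over aged) is filled, and Cd48 has no value in HSC-like cells.

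Whether changes differed between HSC-like and other LSK cells was tested in 1 fit over both, in which 0.786% of 13230 genes were called for aged over young, 0.0605% for CASIN over aged and 1.53% for CASIN over young. No member passed for aged over young or CASIN over aged. The difference of Slamf1 was -1.19 ± 0.40 (adjusted p of 0.247), and the other differences of aged over young included -0.65 ± 0.20 for Esam (0.1501) and -2.44 ± 1.07 for Cd48 (0.495). For CASIN over young Esam passed, with a difference of -0.71 ± 0.18 (adjusted p of 0.033). Slamf1 (-0.95 ± 0.37, 0.313), Cd48 (-3.76 ± 1.16, 0.114) and Flt3 (-1.15 ± 0.35, 0.109) did not. The Flt3 difference for CASIN over aged was -0.95 ± 0.40 (adjusted p of 1). The call of Esam was lost without young replicate 1 or 2 (0.289 and 0.233) or CASIN replicate 2 or 3 (0.054 and 0.300). In HSC-like cells the value of Esam in CASIN over young was 0.02 ± 0.14, and in other LSK cells the value was 0.64 ± 0.27 (adjusted p of 0.243). Without a filter on low counts Slamf1 in aged over young passed as well (-1.10, 0.038). The values of Cd48 rest on 0, 7 and 2 UMIs in the young and 0, 0 and 1 UMIs in the CASIN samples of HSC-like cells, and with a sample left out the CASIN over young difference ranged from -7.66 to -2.19, so its size cannot be read.

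Co-detection showed 2 sets of genes. For each pair, the log2 odds ratio asks whether a cell with a transcript of the first gene holds the second more often than a cell without it, at 4000 UMIs. Of the 45 pairs, 33 had at least 5 cells expected with both genes in every sample, a minimum chosen after the data were seen. Among these, 13 pairs were above 0 in all 9 samples, 10 below 0 in all 9 and 10 mixed. The largest positive values were Cd34 with Flt3 (1.68 ± 0.60), Cd48 with Cd34 (1.46 ± 0.70) and Cd48 with Flt3 (1.29 ± 0.68), and the stem cell genes formed the other set, with Esam and Fgd5 (1.06 ± 0.36), Procr and Fgd5 (1.05 ± 0.33), Procr and Esam (0.74 ± 0.31) and Procr and Ly6a (0.67 ± 0.16).

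Pairs of Procr, Fgd5 or Esam with Cd34, Flt3 or Cd48 that reached the minimum were negative. Procr with Cd48 stood at -1.75 ± 0.63, Flt3 with Esam at -1.58 ± 0.26, Cd34 with Fgd5 at -1.32 ± 0.51, Cd34 with Esam at -1.0003 ± 0.15, Procr with Flt3 at -0.98 ± 0.51 and Procr with Cd34 at -0.95 ± 0.42. In terms of cells, Procr was detected in 21.0% of cells with Cd34, 17.7% of cells with Flt3 and 11.5% of cells with Cd48, but in 42.3% of cells with Fgd5. Kit was above 0 with Procr (0.40), Esam (0.53) and Fgd5 (0.53) and below 0 with Flt3 (-0.43) and Cd48 (-0.69) in all samples, but mixed with Cd34 (-0.25). Cd27 was above 0 with Cd34 (0.54) and Flt3 (0.56), but mixed with Cd48 (0.22), Procr (-0.11) and Kit (0.04). Slamf1 was too rare for the minimum in all 9 samples. Its value with Fgd5 was 1.61 ± 0.38, above 0 in 9 of 9 samples, from as few as 0.094 expected cells with both in a sample.

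Within HSC-like cells few pairs could be judged. Only 11 pairs reached the minimum there, and Procr with Ly6a (0.38 ± 0.26) was above 0 in 9 of 9 samples, with the other 10 mixed. Procr with Cd34, at -0.95 in all LSK cells, was -0.10 ± 0.16 in HSC-like cells, from as few as 5.29 expected cells with both. In the other LSK cells 11 of 32 pairs were above 0 and 8 below 0 in all samples, and Cd34 with Flt3 stood at 1.45 and Procr with Cd48 at -1.56.

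Between groups, the mean values of Procr with the progenitor genes were lowest in CASIN samples. Procr with Cd34 was -0.52 ± 0.26 in young, -0.97 ± 0.29 in aged and -1.35 ± 0.17 in CASIN samples, and the CASIN to young difference was -0.77 in batch 1 and -0.95 in batch 2. Procr with Flt3 was -0.47 ± 0.34 in young, -1.07 ± 0.47 in aged and -1.41 ± 0.21 in CASIN samples. Procr with Cd48 was -1.21 ± 0.49, -1.83 ± 0.63 and -2.22 ± 0.44. Within batches 1 and 2 the CASIN to aged difference was -0.25 and -0.31 for Procr with Cd34. For Procr with Flt3 it was 0.02 and -0.35, and for Procr with Cd48 0.08 and -0.25. In batch 1 the CASIN mean was thus not below the aged sample for the pairs with Flt3 and Cd48. CASIN and young samples did not overlap for these 3 pairs, but the same held for 21 of all 45 pairs (46.7%), so nothing sets these 3 apart (exact permutation test, p = 0.1, the smallest possible, adjusted p of 0.375 over 135 tests), whereas aged samples overlapped with both. Within HSC-like cells the CASIN to young difference was 0.09 for Procr with Cd34, 0.35 with Cd48 and -0.03 with Flt3, so the lower values were not seen there, and the pairs with Cd48 and Flt3 rest on too few cells to be read.

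**Figure D4:**
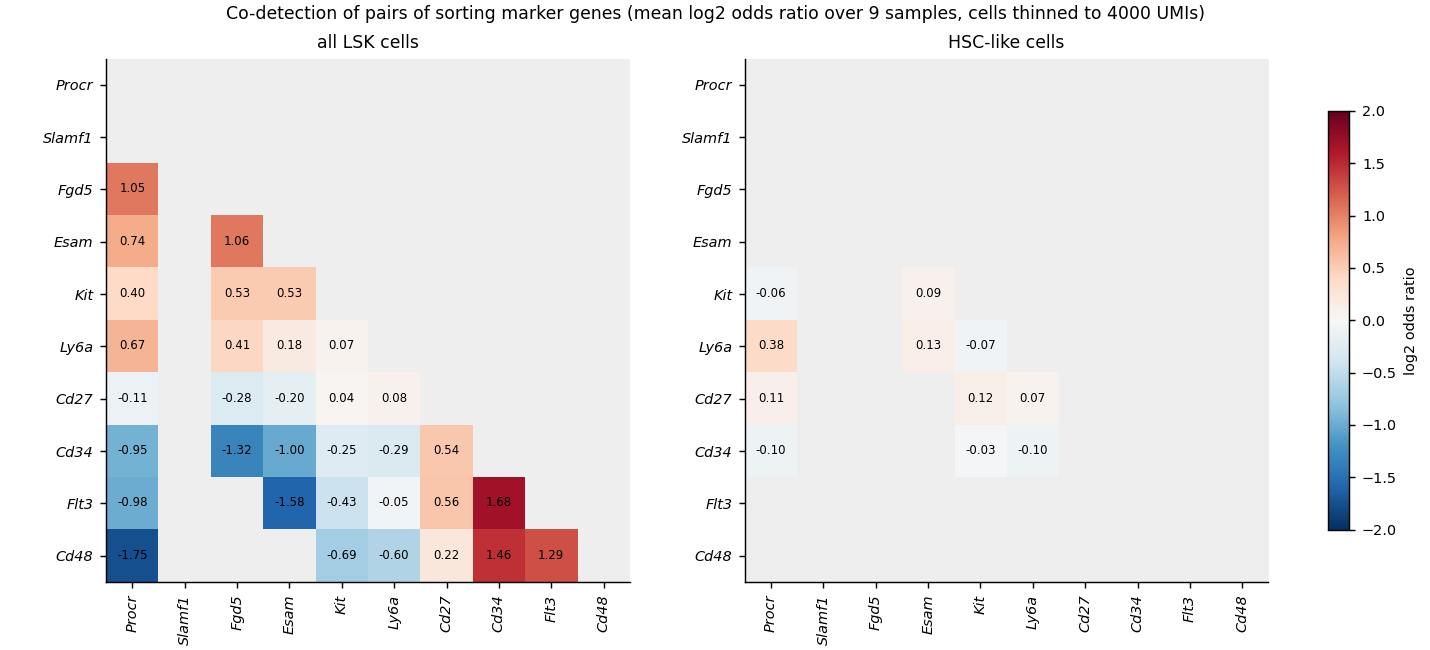
Mean log2 odds ratio of co-detection over 9 samples for each pair (colour from -2 to 2, value printed), at 4000 UMIs, in all LSK cells and in HSC-like cells. Grey cells below the diagonal had under 5 expected cells with both genes in a sample, and those above it repeat no value. Cd34, Flt3 and Cd48 form a positive block (1.29 to 1.68) and are negative with Procr (-0.95 to -1.75).

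Combinations of transcripts that mirror the sorting gates also varied. Cells with neither Cd34 nor Flt3, the long-term HSC gate at the protein level, made up 19.9%, 20.2% and 28.4% of young, 62.7%, 35.9% and 35.3% of aged and 48.6%, 45.7% and 53.8% of CASIN cells at 4000 UMIs. All aged and CASIN samples lay above the young ones, and aged replicate 1 was the highest. The aged to young difference of 21.8 percentage points was 42.6 in batch 1 and 7.17 in batch 2, and CASIN exceeded young by 27.1 and 25.4. CASIN differed from aged samples by -15.5 in batch 1 and 18.2 in batch 2. Over all samples the mean share with neither transcript was 38.9% at 4000 UMIs and 22.9% without thinning, so it depended on depth. Cells with both Cd34 and Flt3 were 25.2% ± 7.12 of young, 15.2% ± 5.62 of aged and 13.8% ± 3.62 of CASIN cells, with overlapping groups. Within batches 1 and 2 their aged to young difference was -20.4 and 1.25 percentage points, so the lower aged share was not seen in batch 2. The CASIN to young difference was -13.6 and -7.01, and the CASIN to aged difference 6.82 and -8.27. Over 24 tests the smallest adjusted p was 0.6 (exact permutation test).

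The same combination can be followed outside the HSC-like cluster. Among other LSK cells, those with neither transcript were 19.8% ± 4.05 in young, 40.1% ± 17.4 in aged and 43.9% ± 3.61 in CASIN samples. Among HSC-like cells they were 75.2% ± 3.25, 82.0% ± 3.12 and 84.6% ± 1.32. In other LSK cells the aged to young difference was 42.8 percentage points in batch 1, with aged replicate 1 as its only aged sample, and 5.60 in batch 2. The CASIN to young difference there was 24.5 and 23.3. In HSC-like cells the aged to young difference was 12.1 and 1.52, and the CASIN to young difference 11.8 and 4.66. Over the samples 20.9% of cells with neither transcript were HSC-like, against 0.292% of cells with both.

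Cells with Slamf1 and without Cd48, the SLAM signature of stem cells, were rare: 0.951% ± 0.46 of young, 4.92% ± 5.64 of aged and 6.21% ± 3.35 of CASIN cells. The aged mean was set by replicate 1, with 11.4%, against 2.35% and 1.02% in the other samples. CASIN samples exceeded young ones by 6.94 percentage points in batch 1 and 1.90 in batch 2. Of the cells with this combination 35.5% ± 15.8 were HSC-like, compared with 0.206% of cells with Cd48 alone. Both transcripts together were found in 0.125% of cells. Most cells, 81.0%, held neither, so the absence of Cd48 transcripts alone said little at this depth.

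**Figure D5:**
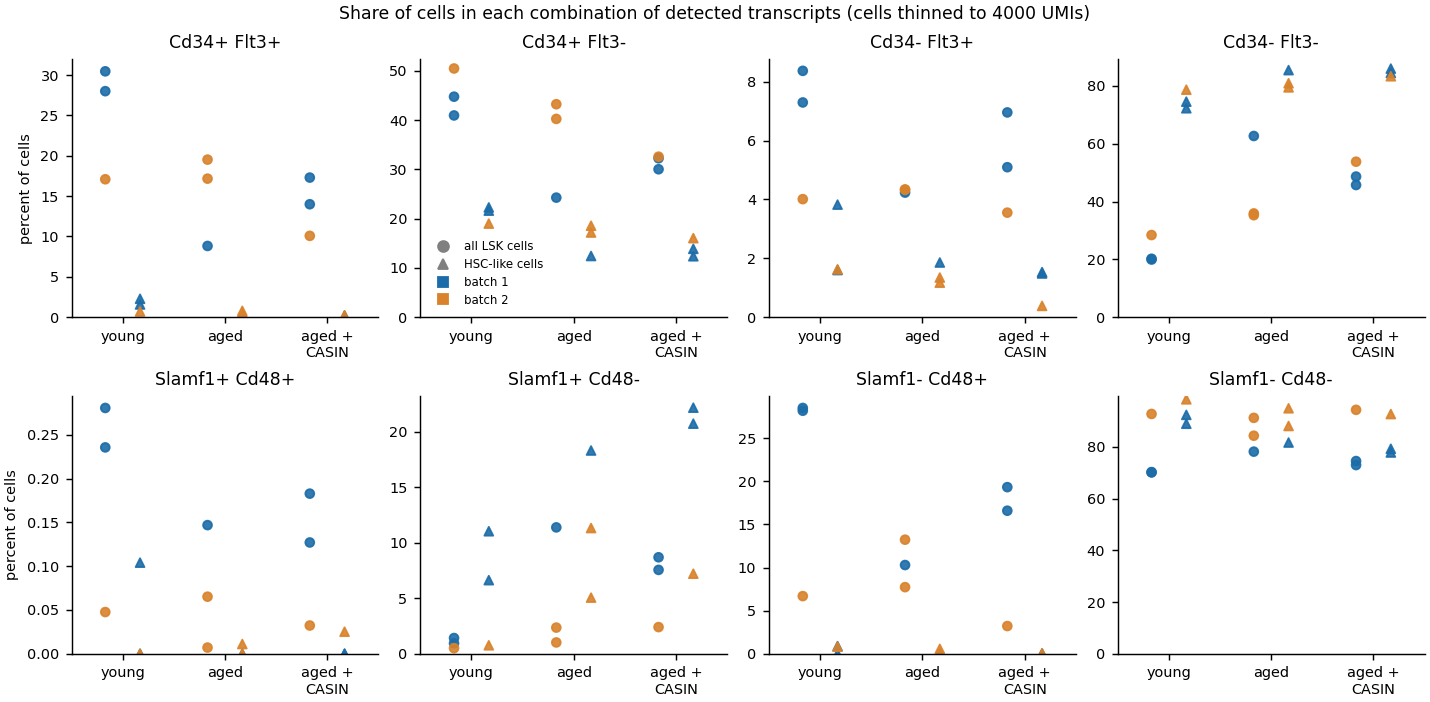
Percent of cells in each combination of detected Cd34 and Flt3 (top) and Slamf1 and Cd48 (bottom) at 4000 UMIs, by sample, for all LSK cells (circles) and HSC-like cells (triangles), coloured by batch. The axes differ between panels. Cells with neither Cd34 nor Flt3 lie between 19.9% and 28.4% in young and between 35.3% and 62.7% in aged samples.

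Beside the 10 genes, 40 other genes used as sort markers or reporters were listed, of which 39 were tested in all LSK cells and 30 in HSC-like cells. The list was chosen with earlier results of these data known, so its counts and median in both populations are a description, not a test of the list. In all LSK cells 8 of 39 rose in aged over young and none fell, where 3.62% of all genes tested rose, with a median change of 0.49 against 0.02 for all genes. Among these were the adhesion receptor Selp (2.63 ± 0.34), Clca3a1 (4.64 ± 0.46), Cd38 (2.54 ± 0.55), Vwf (3.25 ± 0.55), Clec1a (2.85 ± 0.41), Neo1 (2.79 ± 0.57) and Hoxb5 (1.79 ± 0.42). For each of those named, both batches gave a positive difference. In CASIN over young, where 4.09% of all genes rose, 10 of 39 rose, the same 8 with Pdzk1ip1 (1.29 ± 0.27) and Gprc5c (3.77 ± 0.79), and none of the 39 was called between CASIN and aged samples. Vwf, Clec1a, Hoxb5, Ctnnal1 and Mecom of this list were also among the 10 HSC markers used to name the HSC-like cluster.

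Within HSC-like cells 9 of 30 rose in aged over young, where 2.55% of all genes rose, and Cxcr4, the receptor for the niche chemokine CXCL12, fell by 1.38 on the log2 scale (SE 0.32, adjusted p of 0.016). Cxcr4 varied widely between samples, from 5.44 to 432.5 CPM in the sums over all LSK cells. Which samples or which batch carry its fall was not tested. The 9 were Selp, Clca3a1, Alcam, Vwf, Clec1a, Cd38, the integrins Itga6, Itga2b and Itgb3, with Selp at 2.67 ± 0.22 and Alcam at 1.79 ± 0.15 among the larger changes. In CASIN over young 11 of 30 rose and none fell, where 3.65% of all genes rose, with Selp at 2.61 ± 0.21, Clca3a1 at 2.49 ± 0.17, Alcam at 2.05 ± 0.14, Itgb3 at 1.92 ± 0.22 and Vwf at 1.69 ± 0.16. Of the 10 antigens of the lineage gate 6 could be tested in all LSK cells and none passed.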

How the data were processed

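The authors deposited UMI counts per gene and barcode for 9 libraries (10x 3' v3, Cell Ranger 3.1.0 and mm10 per the submitters' processing notes), which were used as deposited. Barcodes with 1000 to 40000 UMIs, up to 6000 genes, up to 10% mitochondrial UMIs and a residual of log genes on log UMIs within 0.4 of 0 were kept. Seurat 5.3.0 integrated the samples on 2000 genes (30 dimensions) and clustered them at resolution 0.4 (35 components), without the 10 genes. Scrublet in scanpy 1.11.5 marked 67 cells (0.423%), too few to count as working, and these were kept. Counts were summed per sample and fitted over all groups by edgeR 4.0.16 (quasi-likelihood, R 4.3.3) with batch as a covariate and Benjamini-Hochberg adjustment, and DESeq2 1.42.0 was an alternative. On simulated data with 200 of 13948 genes changed, 64% of those with a log2 change of 1 were recovered for aged over young (54% of the HSC-like simulation). Shares of cells were computed exactly for 4000 UMIs per cell, and group differences tested by exact permutation (two-sided) without the batch. Odds ratios had 0.5 added to each count. CPM values of 3' UMIs are not divided by gene length and are compared within a gene only.

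The members and all gene lists were chosen with earlier results of these data known. The HSC-like threshold, the minimum of 5 expected cells and the fit without shared barcodes were chosen after the data were seen. All 10 members are named, and of the other lists the genes past an adjusted p of 0.05. A few genes that these rules would name are not reported here. Antibody tags were not analysed here. Alternatives were another tool, scaling or filter, no batch term, a replicate block, a mitochondrial limit of 5%, other clusterings and each sample left out.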

Additional observations from a re-analysis of the deposited data

Results flagged for a closer look

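The change of Esam in CASIN over young differed between HSC-like and other LSK cells by -0.708 on the log2 scale (SE 0.18, adjusted p of 0.033, interaction term in edgeR), where 1.53% of genes were called. The change was 0.02 ± 0.14 in HSC-like cells and 0.64 ± 0.27 in other LSK cells, and neither passed on its own. Esam in HSC-like cells was at 82.1, 76.7 and 47.0 CPM in young and 76.7, 85.3 and 41.1 CPM in CASIN samples, so the batch 2 sample was the lowest of both groups. With the replicate block the difference was -0.69 and did not pass (adjusted p of 0.121).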

How the results depend on the processing

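Of the values of genes, combinations and pairs under alternatives, 2141 were counted as kept. For fitted changes of level this meant the same direction and side of the threshold, while 58 lost a call, 55 gained a call and 52 reversed. For shares of cells, combinations and odds ratios it meant a move of less than the SD, whatever the sign, and 77 moved further. The causes were not tested except where fewer samples, genes or cells were fitted by construction. Depth limits Slamf1, Fgd5 and, in HSC-like cells, Flt3 and Cd48.

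Genes called in all LSK cells numbered 577 for aged over young and 628 for CASIN over young in the fit reported. They were 1149 and 1289 with DESeq2, 1048 and 1119 without a filter on low counts, 0 and 0 without the batch term, 326 and 117 at a mitochondrial limit of 5% and 1081 and 1012 without a filter on cells. Leaving out each sample gave 31 to 945 and 20 to 1584. In HSC-like cells 331 (aged over young), 3 (CASIN over aged) and 554 (CASIN over young) became 192, 1 and 288 with DESeq2, 0, 0 and 1 without the batch term, 177, 0 and 314 at the 5% limit, 970, 0 and 1737 at resolution 0.8, and 849, 1 and 1498 with the marker genes kept in the clustering. Without a filter on low counts the first and second were 543 and 32. Leaving out each sample gave 161 to 362, 0 to 6 and 302 to 621. The differences between HSC-like and other cells called 104, 8 and 203 genes. They were 187 and 26 without the filter for aged over young and CASIN over aged, and 72 to 209, 3 to 127 and 101 to 388 with a sample left out. Of the 45 pairs, 30 had the same sign in all samples, and 10 within HSC-like cells. Of these 10, 1 reached the minimum of 5 expected cells. The other 9 had smallest expected counts of 0 to 0.169, where the 0.5 added to each count can set the sign.

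Over genes, the deviations of samples from their group means were correlated in all LSK cells. Same-numbered samples of 1 batch correlated at 0.708 to 0.881, and differently numbered samples of 1 batch at 0.625 to 0.740. Same-numbered samples of different batches correlated at -0.597 and -0.584. The sign thus followed the batch, and whether replicate numbers also pair samples within a batch was not tested. With a replicate block in place of the batch, called genes numbered 0 and 0 in all LSK cells, 8, 0 and 18 in HSC-like cells (in the order above) and 14 for the difference in CASIN over aged.

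Several uncalled values reversed. In all LSK cells Cd48 in aged over young was -1.01 without the batch term, -0.66 with the replicate block, -0.016 at the 5% limit and -0.072 without a filter on cells, and in CASIN over aged 0.41 and 0.044 under the first and second of these. Slamf1 in CASIN over aged was -0.0019 with DESeq2 size factors, -0.21 at the 5% limit and -0.00093 without Scrublet's doublets, and Fgd5 -0.16 at the 5% limit. In HSC-like cells, aged over young without the batch term and with the replicate block was -0.11 and -0.10 for Kit, -0.093 and -0.063 for Ly6a, and -0.18 and -0.19 for Esam, and Ly6a was -0.27 at the 5% limit. Slamf1 in CASIN over aged was 0.52 without the batch term, 0.61 with the block, 0.097 at the 5% limit, 0.0028 without shared barcodes, 0.074 at resolution 0.8 and 0.12 with the marker genes kept. Esam in CASIN over young was -0.00086 at the 5% limit, -0.0055 without doublets and -0.0020 with the marker genes kept.

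With a sample left out, values that reversed ranged in all LSK cells from -0.47 to 0.86 for Cd48 and -0.94 to 0.15 for Flt3 (aged over young), and from -0.33 to 0.047 for Procr, -0.25 to 0.67 for Slamf1 and -0.19 to 0.95 for Fgd5 (CASIN over aged). In HSC-like cells they ranged from -0.091 to 0.30 for Ly6a (aged over young), -0.26 to 0.25 for Slamf1 and -0.020 to 0.33 for Fgd5 (CASIN over aged), and -0.12 to 0.41 for Ly6a and -0.060 to 0.078 for Esam (CASIN over young). The difference of Slamf1 between HSC-like and other cells in aged over young ranged from -1.79 to 0.10.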
